A study of Mus musculus with 8 samples.

Results

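Cytochromes P450 are haem enzymes that insert 1 oxygen atom into fatty acids, sterols, retinoids and foreign compounds. Those of the endoplasmic reticulum take their electrons from the reductase Por, and those of mitochondria take them from ferredoxin. In heart tissue they are best known for the arachidonic acid products of the epoxygenases and fatty acid hydroxylases. Epoxide hydrolases turn the epoxides into diols, Ephx2 being the soluble enzyme and Ephx1 the microsomal one. The family described here comprised the genes with a P450 symbol of the ordinary kind plus Por, Ephx1 and Ephx2, leaving out the Cyp26 and Cyp51 genes, with at least 40 counts summed over all libraries. Of 94 genes in the pattern 31 met this minimum, 28 of them P450 genes, among 55385 genes in the table. Another 43 had 1 to 39 counts in all and 20 had 0 counts in every library. Just inside the minimum lay Cyp1a2 with 46 counts, and just outside it Cyp2d26 with 32.

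RNA-seq profiles came from the left ventricle of male C57BL6 mice, with 4 samples of the genotype Mst1-TG and 4 of the genotype WT, which are littermates lacking the transgene. Mst1-TG is a model of dilated cardiomyopathy in which the Hippo pathway kinase Mst1 (mouse gene Stk4) is overexpressed in cardiomyocytes alone, from the alpha-MHC promoter. The age is 3 weeks according to the design text and 3 months according to the extraction protocol. The protocols also describe crosses with a galectin-3 knockout, which the titles and genotypes of these 8 samples do not name. The question posed here is which of these enzymes differ between Mst1-TG and WT ventricle.

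Libraries held 21193536 to 23809256 estimated counts. Levels of 1 gene across libraries are given in CPM, counts relative to the TMM-adjusted library size, and ± after a log2 fold change is its SE. Stk4 was at 1608 ± 130.3 CPM in Mst1-TG and 27.2 ± 1.88 CPM in WT (SD, n = 4 each), in the direction of the labels. Mitochondrially encoded genes took 12.9% to 14.4% of the counts in Mst1-TG and 21.4% to 23.8% in WT. All 8 cardiomyocyte markers were measured, 5 of them lower in Mst1-TG and none higher, where 21.1% of all genes tested were lower. Ryr2 (log2 fold change -0.25), Actn2 (-0.08) and Ttn (0.07) did not pass the edgeR test. Marker sums were 27741 to 37455 CPM in Mst1-TG and 39413 to 48129 CPM in WT. Myh6 alone gave 16454 of a mean sum of 31864 CPM in Mst1-TG and 21712 of 44986 CPM in WT. Traces of hepatocyte transcripts were uneven: 8 hepatocyte markers, albumin among them, summed to 37.9, 1.77, 7.46 and 3.47 CPM in Mst1-TG 1 to 4 and to 58.4, 62.6, 11.6 and 15.0 CPM in WT 1 to 4. Mst1-TG 1, WT 1 and WT 2 therefore stood apart, which bears on the liver-type P450 genes below. Of the 8 markers 5 could be tested, and none passed (edgeR adjusted p 0.16 to 0.44).

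The filter on low counts left 26 of the 31 genes to be tested, and Cyp1a1, Cyp1a2, Cyp2c29, Cyp3a11 and Cyp11a1 fell below it. Of the 26, Mst1-TG had 6 at higher and 5 at lower levels, with an adjusted p below 0.05 (edgeR, Benjamini-Hochberg). That is a share of 42.3%, against 42.3% of the 15314 genes tested over the whole table, of which 21.2% were higher and 21.1% lower, so the family's share was the same as the background. Groups did not overlap in 11 of the 26, again 42.3%, against 40.3% of all genes. The 26 had a median log2 fold change (Mst1-TG over WT throughout) of 0.14, against 0.01 over all genes. At least 2-fold changes were called in 6 of the 26, and in 10.4% of all genes tested. The members that rose were Cyp1b1, Cyp2s1, Ephx1, Cyp39a1, Cyp20a1 and Cyp4f16, and those that fell were Cyp3a13, Cyp2e1, Cyp4b1, Ephx2 and Cyp2u1. Each of the 5 falls and all rises but 2 also kept their call without Mst1-TG 1, WT 1 and WT 2. The exceptions were Cyp2s1 (0.84, adjusted p = 0.14) and Cyp4f16 (0.26, adjusted p = 0.197). That setting was chosen after the hepatocyte traces were seen, and it leaves 3 libraries against 2.

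**Figure D1:**
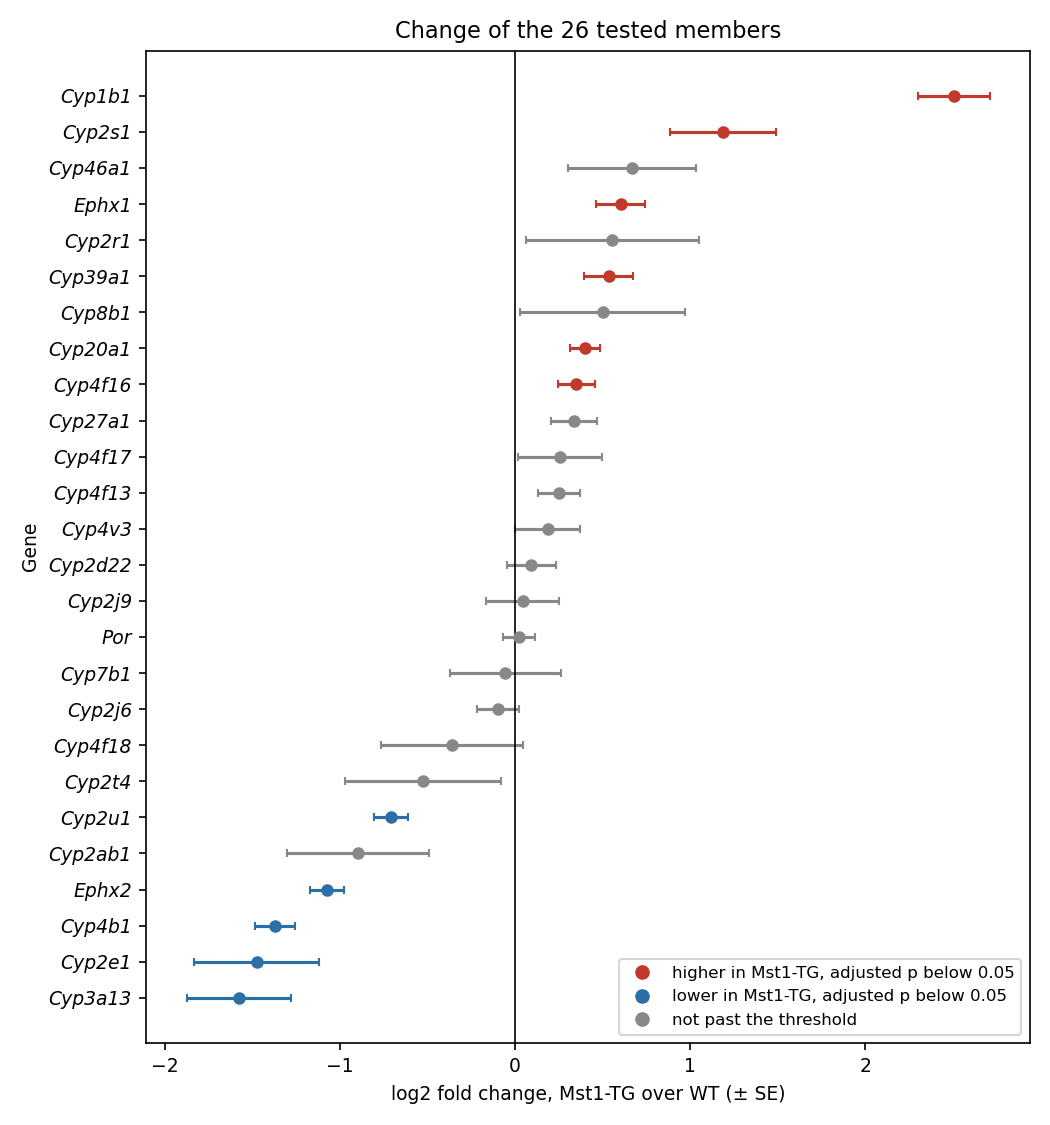
Log2 fold change (Mst1-TG over WT, horizontal axis) of the 26 tested members, each a point with its SE. Cyp1b1 lies alone at 2.51, and the 5 genes called lower run between -0.71 and -1.58.

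Levels of different genes were compared per kilobase of the longest annotated transcript, scaled to the same sum in every library (TPM). By this measure Ephx2, Ephx1 and Por led the order in both groups. In Mst1-TG they stood at 137 ± 16.4, 89.6 ± 15.3 and 43.2 ± 1.38 TPM, and in WT at 206 ± 24.9, 42.0 ± 6.02 and 30.3 ± 4.11 TPM (SD, n = 4 each). These values are scaled to library totals, so they serve for the order of genes within a group and not for changes between groups. Among the P450 genes the order differed between groups. Cyp1b1 came first in Mst1-TG (23.7 ± 7.03 TPM), ahead of Cyp20a1 (21.2 ± 2.24), Cyp2d22 (21.01 ± 3.52), Cyp27a1 (19.7 ± 3.40) and Cyp4b1 (16.2 ± 2.70), neighbours that lay within their spread. Cyp4b1 came first in WT (29.9 ± 2.28 TPM), clear of Cyp2d22 (13.98 ± 1.95), Cyp20a1 (11.5 ± 0.889) and Cyp27a1 (11.1 ± 1.63), which lay within their spread of each other. The length chosen matters to these orders. With the median transcript length Por stood at 78.1, Ephx2 at 70.3 and Ephx1 at 65.5 TPM in Mst1-TG, so that Por led there, and Ephx2 stood at 117, Por at 60.7 and Ephx1 at 34.0 TPM in WT. Cyp2d22 then led the P450 genes, at 45.3 TPM in Mst1-TG and 33.4 TPM in WT, with Cyp1b1 at 18.3 TPM in Mst1-TG and Cyp4b1 at 24.5 TPM in WT. By the longest transcript and within a library, Cyp1b1 held 15.4% ± 3.51 of the summed P450 TPM in Mst1-TG and 2.79% ± 0.485 in WT, and Cyp4b1 held 10.7% ± 2.28 in Mst1-TG and 28.1% ± 0.526 in WT (SD, n = 4 each). The summed P450 TPM stood to Por TPM as 3.53 ± 0.293 in Mst1-TG and 3.54 ± 0.303 in WT.

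**Figure D2:**
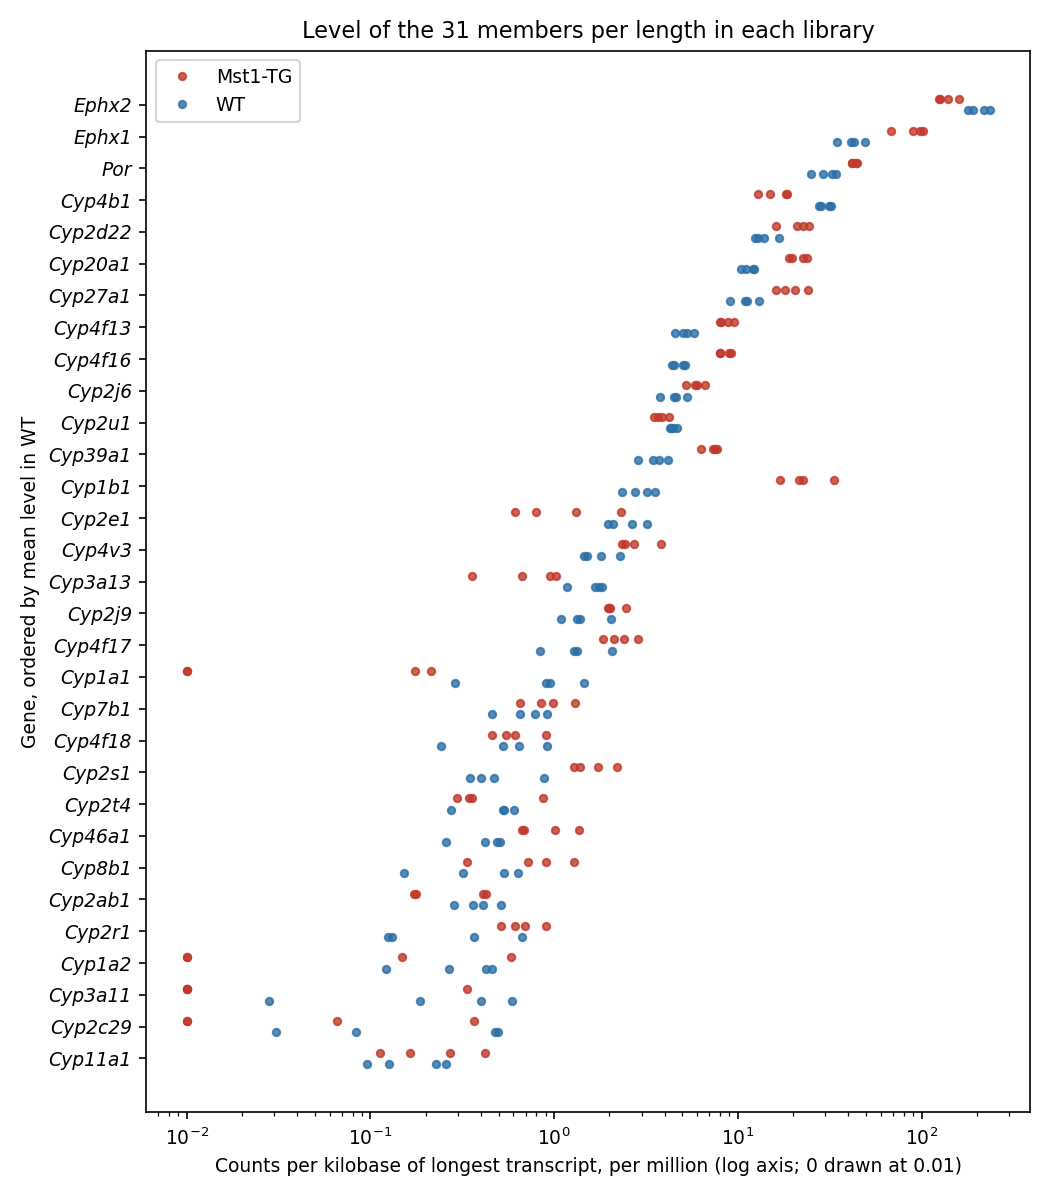
Level of the 31 members in each library in TPM by the longest transcript (horizontal log axis, 0 drawn at 0.01), ordered by the mean in WT. Mst1-TG libraries are red and WT libraries blue. Ephx2 leads in both groups, and Cyp1b1 is the 4th member in Mst1-TG and the 13th in WT.

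The Cyp1 genes and Cyp2s1 are targets of the Ah receptor, a transcription factor that binds aromatic ligands and pairs with Arnt. Cyp1b1 metabolises oestradiol, fatty acids and aromatic hydrocarbons. It had 37.2, 49.1, 72.5 and 52.1 CPM in the 4 Mst1-TG libraries, against 7.60, 8.84, 10.04 and 10.6 CPM in the 4 WT libraries. The lowest Mst1-TG library lay far above the highest WT library, and the 5.69-fold rise (log2 2.51 ± 0.20 SE, edgeR adjusted p = 6.9e-06) was the largest among the tested members. In bulk tissue a change in the number of cells of a type cannot be told apart from a change in RNA per cell. Fibroblast markers were higher too, 8 of 8, where 21.2% of all genes tested were higher. They summed to 5781 to 8220 CPM in Mst1-TG and 2641 to 3509 CPM in WT. Per 1000 CPM of these markers Cyp1b1 had 4.53, 8.49, 10.5 and 7.44 CPM in Mst1-TG 1 to 4, against 2.88, 2.75, 3.57 and 3.02 CPM in WT 1 to 4, so the groups did not overlap on this scale either. The scale leans on collagen transcripts: Col3a1, Col1a2 and Col1a1 had means of 2113.3, 1403.5 and 1395 CPM in Mst1-TG, of a mean sum of 6979.2 CPM. The part of fibroblasts in the rise of Cyp1b1 was not tested.

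Cyp2s1, which is found mostly in epithelia, was a low gene. It had 3.00, 1.94, 1.71 and 2.47 CPM in Mst1-TG, against 0.803, 0.930, 0.666 and 1.61 CPM in WT. The groups approached each other through WT 4 but did not overlap (log2 1.19 ± 0.30, edgeR adjusted p = 0.0065). Cyp1a1, the enzyme classically induced through the Ah receptor, went the other way, at counts too low for the filter. It had 5, 0, 6 and 0 counts in Mst1-TG, against 53, 31, 31 and 9 counts in WT. Every Mst1-TG library lay below every WT library. The ratio of the summed counts, scaled for library size, was 0.0750 (exact 95% interval 0.0365 to 0.139, covering counting error only). Without a filter on low counts its log2 fold change was -3.66 (edgeR adjusted p = 3.4e-13). That fit gave far smaller p-values to some abundant members too, such as Ephx2 (adjusted p = 2.9e-42, against 1.3e-06 in the main fit). With the filter, Cyp1a1 was tested only in the fits leaving out 1 Mst1-TG library or WT 4. All of these keep WT 1, WT 2 and WT 3, and Cyp1a1 cleared the filter through those WT counts alone. Log2 fold changes there were -4.34 to -3.27 (edgeR adjusted p 4.33e-04 to 0.00465). Because the gene entered these fits only where it was high in WT, the p-values lend the difference no further support. WT 1 and WT 2, with 53 and 31 counts, were also the libraries highest in hepatocyte markers, and Mst1-TG 2 and 4, with 0 counts, the lowest. WT 3 had 31 counts at a marker sum of 11.6 CPM and Mst1-TG 1 had 5 counts at 37.9 CPM. The part of the liver traces in the Cyp1a1 ratio was not tested. Cyp1a2, a liver enzyme and the neighbour of Cyp1a1 on chromosome 9, had 12, 0, 3 and 0 counts in Mst1-TG and 12, 10, 3 and 6 counts in WT, with overlapping groups (ratio 0.409, 0.205 to 0.781). Cyp1a2 did not pass in the fit without a filter (log2 -1.27, edgeR adjusted p = 0.176). Nor did it pass in the fits leaving out 1 library in which it was tested (adjusted p 0.202 to 0.437). Its higher counts fell in the libraries with most hepatocyte markers, and the part of these in its ratio was not tested.

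The 250 bases before the RefSeq start sites of Cyp1a1 and Cyp1b1 are shown because both are Ah receptor targets whose counts differed in opposite directions. Capitals mark GCGTG, the core of the Ah receptor element, on either strand (read as CACGC where it lies on the other strand). Cyp1a1 is at chr9:57697363-57697612 on the forward strand and Cyp1b1 at chr17:79715062-79715311 on the reverse strand of GRCm38.p6.
Cyp1a1: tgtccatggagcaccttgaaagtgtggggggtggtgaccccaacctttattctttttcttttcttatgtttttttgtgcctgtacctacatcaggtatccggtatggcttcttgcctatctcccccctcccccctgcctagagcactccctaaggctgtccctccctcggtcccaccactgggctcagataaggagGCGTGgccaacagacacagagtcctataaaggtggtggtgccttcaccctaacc
Cyp1b1: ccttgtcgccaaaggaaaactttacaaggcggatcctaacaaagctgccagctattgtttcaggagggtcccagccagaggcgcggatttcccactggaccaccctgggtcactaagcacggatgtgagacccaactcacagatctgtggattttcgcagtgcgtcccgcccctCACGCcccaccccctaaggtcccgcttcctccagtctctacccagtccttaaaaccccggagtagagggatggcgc
Each window holds 1 match, at bases -54 to -50 in Cyp1a1 and, on the other strand, at -76 to -72 in Cyp1b1. Such a match occurs in 28.2% of 32851 RefSeq promoter windows of this length, and in 9 of the 25 members that have one, Cyp2s1 not among them. The direct repeat element DR1 of the PPAR and RXR receptors, searched on both strands as an exact match, was in none of the 25 and in 0.0335% of all windows. A match this rare would be missing from nearly any 25 windows, so its absence tells nothing about these members. A match is a description of the letters and not of binding.

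Genes around the Ah receptor did not move as one. Ahr itself had a log2 fold change of -0.23 ± 0.17 (edgeR adjusted p = 0.32), and Arnt rose by 0.28 ± 0.06 (adjusted p = 0.002). The repressor Ahrr, a target of the receptor, had 0.892, 0.820, 0.489 and 1.00 CPM in Mst1-TG, against 2.79, 1.29, 2.47 and 2.57 CPM in WT (-1.51 ± 0.30, adjusted p = 0.0013). All Mst1-TG libraries were below all WT libraries. The 4 genes of this paragraph were chosen after their values were seen. Tiparp, another target that restrains the receptor, rose by 0.52 ± 0.10 (adjusted p = 9.9e-04).

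Of the epoxide hydrolases one fell and the other rose. Ephx2 hydrolyses fatty acid epoxides in the cytosol and was the most abundant member by the longest transcript. It had 109, 144, 119 and 114 CPM in Mst1-TG, against 233, 278, 237 and 278 CPM in WT. The highest Mst1-TG library was well below the lowest WT library (log2 -1.08 ± 0.10, edgeR adjusted p = 1.3e-06). Of the 8 cardiomyocyte markers 5 were lower as well, with a median log2 fold change of -0.41 over the 8. The part of cardiomyocytes in the fall of Ephx2 was not tested. Ephx1, which clears epoxides of foreign compounds and also of lipids, had 50.9, 79.1, 71.8 and 70.3 CPM in Mst1-TG, against 54.4, 37.7, 43.6 and 43.3 CPM in WT. The groups overlapped, Mst1-TG 1 lying under WT 1, and the rise passed the test (0.60 ± 0.14, adjusted p = 0.006). Per 1000 CPM of fibroblast markers, 8 of 8 of which rose, Ephx1 had 10.1 ± 3.07 CPM in Mst1-TG and 15.1 ± 4.06 CPM in WT (SD, n = 4 each), with overlapping groups, so on that scale the direction of the means turned. That turn depends on the markers, whose log2 fold changes ran from 0.27 (Dpt) to 1.67 (Col1a2), with Ephx1 between them. The part of fibroblasts in the rise of Ephx1 was not tested. The ratio of Ephx2 to Ephx1 within a library, per length, was 1.83, 1.56, 1.42 and 1.39 in Mst1-TG, against 3.66, 6.31, 4.64 and 5.48 in WT. The groups did not overlap.

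Por, which hands electrons to every P450 of the endoplasmic reticulum, had 47.6, 51.3, 46.8 and 52.9 CPM in Mst1-TG, against 57.6, 41.5, 46.4 and 50.04 CPM in WT. The libraries interleave, and no difference was called (log2 0.02 ± 0.09, edgeR adjusted p = 0.87). With library totals as the only scaling, which moves the median of all genes from 0.01 to 0.29, Por was called higher (0.31, adjusted p = 0.0115).

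**Figure D3:**
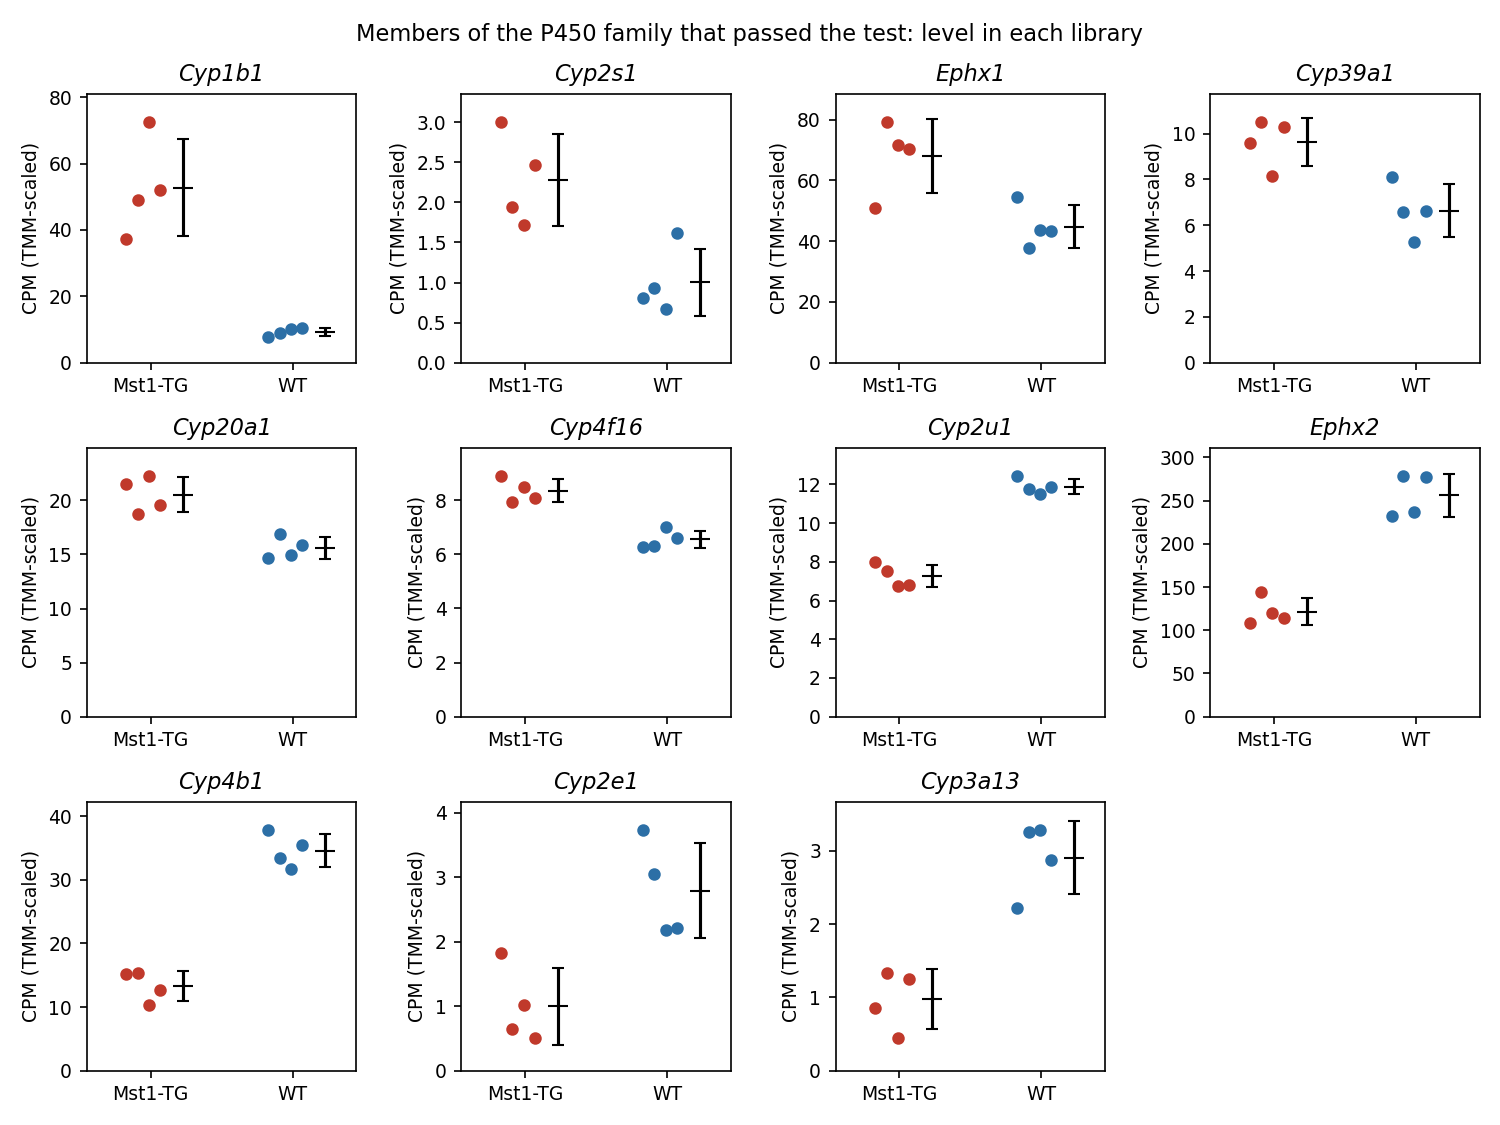
CPM in each library (vertical axes, from 0) of the 11 members called higher or lower, Mst1-TG in red and WT in blue, with the mean and SD beside the points. Groups overlap in Ephx1, where the lowest Mst1-TG library has 50.9 CPM and the highest WT library 54.4, and in none of the other 10.

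The epoxygenases of the Cyp2j and Cyp2c subfamilies make epoxides of arachidonic acid. Of 23 such genes, 3 reached 40 counts and only 2 could be tested. Neither passed, where 42.3% of all genes tested were called. Cyp2j6 had 9.32 ± 1.10 CPM in Mst1-TG and 9.97 ± 1.09 CPM in WT (log2 -0.10 ± 0.12, edgeR adjusted p = 0.55), and its neighbour Cyp2j9 had 2.32 ± 0.238 CPM in Mst1-TG and 2.26 ± 0.542 CPM in WT (0.04 ± 0.21, adjusted p = 0.89; SD, n = 4 each). Libraries of both groups interleave in either gene. Cyp2c29, abundant in liver, had 11, 0, 0 and 2 counts in Mst1-TG and 18, 17, 3 and 1 counts in WT. Its counts lay mostly in Mst1-TG 1, WT 1 and WT 2, the libraries highest in hepatocyte markers. The ratio of the sums was 0.282 (0.138 to 0.539), and the fit without a filter gave -1.79 (adjusted p = 0.0262), while in the 5 fits leaving out 1 library in which it was tested it did not pass (adjusted p 0.105 to 0.341). The part of the liver traces was not tested.

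Fatty acid hydroxylases of the Cyp4 family and Cyp2u1 add a hydroxyl group at or near the end of fatty acid chains. Of 18 such genes, 7 reached 40 counts, and 1 rose, 2 fell and 4 did not pass, with a median log2 fold change of 0.19. Over all genes tested, 42.3% were called. Cyp4b1, which acts on short and medium chain fatty acids, had 15.1, 15.3, 10.3 and 12.7 CPM in Mst1-TG, against 37.8, 33.4, 31.8 and 35.4 CPM in WT. No Mst1-TG library reached 50% of the lowest WT library (log2 -1.37 ± 0.11, edgeR adjusted p = 8.1e-07). Among the 31-base words of Cyp4b1 transcripts, 11.75% occur in other genes and 6.14% in Cyp4b1-ps2. Of the endothelial markers 3 of 8 were lower and none higher, where 21.1% of all genes tested were lower. Their sums overlapped, at 1330 to 1936 CPM in Mst1-TG and 1783 to 2244 CPM in WT. Per 1000 CPM of these markers Cyp4b1 had 11.4, 10.1, 5.33 and 7.18 CPM in Mst1-TG, against 18.5, 18.7, 15.8 and 15.8 CPM in WT, without overlap. The part of endothelial cells in the fall of Cyp4b1 was not tested. Cyp2u1, which hydroxylates arachidonic acid, had 7.99, 7.51, 6.77 and 6.82 CPM in Mst1-TG, against 12.4, 11.8, 11.5 and 11.8 CPM in WT. Its libraries were tight within each group and apart between them (-0.71 ± 0.10, adjusted p = 7.2e-05). An antisense gene, 4930534D22Rik, overlaps exons of Cyp2u1 and holds 9.93% of its 31-base words, at 0.041 CPM in Mst1-TG and 0.086 CPM in WT.

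Of the 4 Cyp4f members, Cyp4f17, Cyp4f16 and Cyp4f13 lie between base 32506050 and base 32947402 of chromosome 17 in GRCm38, and Cyp4f18 lies on chromosome 8. Cyp4f16 had 7.94 to 8.88 CPM in Mst1-TG and 6.28 to 6.99 CPM in WT and rose without overlap (log2 0.35 ± 0.11, edgeR adjusted p = 0.016). Cyp4f13 did not pass, although its groups did not overlap (6.58 ± 0.482 CPM in Mst1-TG and 5.53 ± 0.420 CPM in WT; 0.25 ± 0.12, adjusted p = 0.11), and Cyp4f17 did not pass either (0.26 ± 0.24, adjusted p = 0.43). Both have the sign of Cyp4f16. Reads can be shared here: 26.8% of the 31-base words of Cyp4f16 transcripts occur in other genes, mostly Cyp4f37, and 12.1% of those of Cyp4f17. Cyp4f18, a leukotriene hydroxylase of neutrophils, had -0.36 ± 0.40 (adjusted p = 0.51) and shares exonic ground with Zfp961 on the opposite strand, and Cyp4v3, whose human counterpart is a fatty acid hydroxylase of the eye, had 0.19 ± 0.19 (adjusted p = 0.45).

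Sterol hydroxylases were called once among the 5 tested, against 42.3% of all genes, with a median log2 fold change of 0.50. Cyp39a1, which hydroxylates oxysterols, had 9.61, 10.5, 8.15 and 10.3 CPM in Mst1-TG, against 8.12, 6.56, 5.28 and 6.60 CPM in WT. Mst1-TG 3 lay just above WT 1, the nearest approach of the groups (0.54 ± 0.14, edgeR adjusted p = 0.0074). Cyp27a1, the mitochondrial sterol hydroxylase, had 13.2, 20.3, 16.3 and 15.4 CPM in Mst1-TG, against 13.6, 10.8, 12.7 and 14.4 CPM in WT. Mst1-TG 1 lay among the WT libraries, and the difference missed the threshold (0.34 ± 0.13, adjusted p = 0.054). It passed without Mst1-TG 1 (0.43, adjusted p = 0.0147), without WT 4 (0.40, adjusted p = 0.0457), without a filter (adjusted p = 0.00849), with DESeq2 (adjusted p = 0.0473) and with library totals only (0.62, adjusted p = 0.0016). Over all alternatives its adjusted p ran from 0.0016 to 0.171. The brain cholesterol hydroxylase Cyp46a1 (0.67 ± 0.36, adjusted p = 0.16), the bile acid enzyme Cyp8b1 (0.50 ± 0.47, adjusted p = 0.42) and the oxysterol hydroxylase Cyp7b1 (-0.05 ± 0.32, adjusted p = 0.91) were all under 2 CPM in every library and did not pass.

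Vitamin D and steroid hormone enzymes were near the limit of detection. The vitamin D hydroxylase Cyp2r1 had 0.559 ± 0.130 CPM in Mst1-TG and 0.376 ± 0.309 CPM in WT (log2 0.56 ± 0.50, edgeR adjusted p = 0.40; SD, n = 4 each). Leaving out WT 1 moved it to 1.24 (adjusted p = 0.0677), over 1.5 times the fold. Cyp11a1, which cleaves the side chain of cholesterol in mitochondria, had 6, 4, 15 and 10 counts in Mst1-TG and 12, 4, 10 and 5 counts in WT (ratio 0.955, 0.572 to 1.60). Its counts interleave between groups, and its exons overlap those of the noncoding Gm17322 on the same strand, at 0.282 CPM in Mst1-TG and 0.049 CPM in WT. Of 3 cholesterol transfer proteins measured, Star and Tspo were higher and Stard3 was lower. Star, which brings cholesterol into mitochondria, had 22.2, 21.8, 21.4 and 15.8 CPM in Mst1-TG, against 3.45, 3.57, 3.52 and 3.63 CPM in WT (2.52 ± 0.13, adjusted p = 2.0e-08), and the outer membrane protein Tspo rose by 1.402 ± 0.07 (adjusted p = 1.1e-08). Stard3, a cholesterol carrier of late endosomes, fell by 0.30 ± 0.08 (adjusted p = 0.009). Adrenal cortex markers other than Star were at or near 0, and Cyp11b1 had 0 counts in every library.

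P450 genes of the drug-metabolising families were called in 2 of the 5 tested, both lower, where 42.3% of all genes tested were called and 21.1% were lower. Cyp3a13, a relative of the liver's main drug oxidase, had 0.851, 1.34, 0.448 and 1.25 CPM in Mst1-TG, against 2.22, 3.26, 3.28 and 2.87 CPM in WT. The groups did not overlap (log2 -1.58 ± 0.30, edgeR adjusted p = 8.4e-04). Cyp2e1, the ethanol-inducible enzyme that is abundant in liver and present in fat, had 1.82, 0.648, 1.02 and 0.502 CPM in Mst1-TG, against 3.73, 3.05, 2.188 and 2.22 CPM in WT (-1.48 ± 0.36, adjusted p = 0.0049). Its highest values in each group were those of Mst1-TG 1, WT 1 and WT 2, the libraries with most hepatocyte markers. Without Mst1-TG 1, WT 1 and WT 2 the change was -1.60 (adjusted p = 0.00926), and that of Cyp3a13 was -1.60 (adjusted p = 0.0127). Adipocyte markers, 1 of 7 of which could be tested and did not pass, summed to 0.173 to 11.4 CPM in Mst1-TG and 1.09 to 15.9 CPM in WT.

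Cyp3a11, the main liver enzyme of its subfamily, had 10, 0, 0 and 0 counts in Mst1-TG and 15, 20, 1 and 6 counts in WT. All its Mst1-TG counts came from Mst1-TG 1, and the groups overlap (ratio 0.201, 0.0901 to 0.408). The no-filter fit, the only fit that tested it, gave -2.27 (edgeR adjusted p = 0.0041). Its counts too followed the order of the hepatocyte markers, whose part was not tested. Cyp2d22, the most abundant of the drug-metabolising members, had 31.1 ± 5.20 CPM in Mst1-TG and 29.2 ± 4.85 CPM in WT and did not pass (0.09 ± 0.14, adjusted p = 0.63; SD, n = 4 each). It passed without the libraries highest in hepatocyte markers (0.31, adjusted p = 0.0328) and with library totals only (0.38, adjusted p = 0.03). The little-studied Cyp2ab1 (-0.90 ± 0.41, adjusted p = 0.093) and Cyp2t4 (-0.53 ± 0.45, adjusted p = 0.37) did not pass. Exons of Cyp2t4 overlap those of Egln2 on the opposite strand, which had 57.1 CPM in Mst1-TG and 64.4 CPM in WT, so with the strand setting not given its counts are uncertain. Cyp20a1, a P450 without a known substrate, had 20.5 ± 1.62 CPM in Mst1-TG and 15.6 ± 0.987 CPM in WT and rose by 0.40 ± 0.09 (adjusted p = 0.0021), with no overlap.

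**Figure D4:**
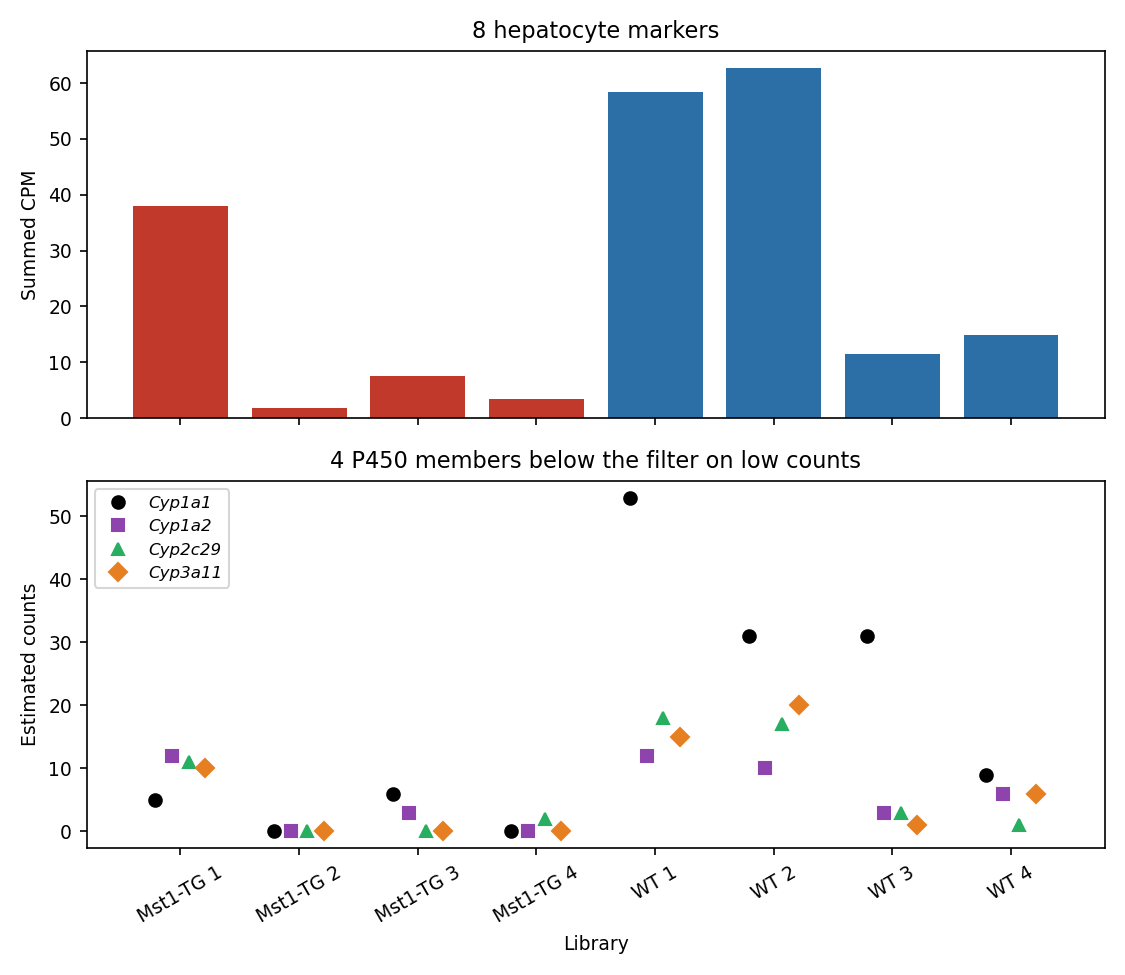
Summed CPM of 8 hepatocyte markers (top) and estimated counts of 4 members below the filter (bottom) in each library, Mst1-TG left of WT. Cyp1a2, Cyp2c29 and Cyp3a11 reach 10 or more counts only in Mst1-TG 1, WT 1 and WT 2, where the markers are highest, while Cyp1a1 also has 31 counts in WT 3.

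Partner genes of the family were described from lists by role. Of 13 electron donors and haem partners 5 rose and 4 fell (median log2 fold change 0.00), where 21.2% of all genes tested rose and 21.1% fell. Cyb5r3, the reductase of cytochrome b5, had 320, 359, 373 and 343 CPM in Mst1-TG, against 137, 108, 132 and 133 CPM in WT (1.45 ± 0.09, edgeR adjusted p = 4.9e-08). Each Mst1-TG library was above 2 times any WT library. Of the mitochondrial donors, ferredoxin Fdx1 fell by 0.76 ± 0.08 (adjusted p = 9.3e-06) and its reductase Fdxr fell by 0.40 ± 0.12 (adjusted p = 0.017), while Fdx2 did not pass (-0.20 ± 0.09, adjusted p = 0.082). Hmox2, a haem oxygenase, fell by 0.52 ± 0.06 (adjusted p = 1.1e-05).

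Of 21 other arachidonic acid enzymes tested 6 rose and 4 fell (median -0.08), where 21.2% of all genes tested rose and 21.1% fell. Of 4 phospholipases tested, 1 rose, 1 fell, and Pla2g6 (-0.08 ± 0.11, edgeR adjusted p = 0.59) and Pla2g4b (-0.19 ± 0.30, adjusted p = 0.64) did not pass. Pla2g4a, the cytosolic enzyme, had 23.2, 15.1, 19.8 and 17.98 CPM in Mst1-TG, against 4.91, 5.22, 4.90 and 4.59 CPM in WT (log2 1.955 ± 0.13, edgeR adjusted p = 1.3e-07). The secreted Pla2g5 had 9.61, 9.63, 3.79 and 7.78 CPM in Mst1-TG, against 38.0, 50.5, 44.9 and 41.1 CPM in WT (-2.50 ± 0.24, adjusted p = 3.7e-05). Neither gene's groups overlapped. Prostacyclin synthase Ptgis, itself of P450 fold, rose by 1.04 ± 0.09 (adjusted p = 8.8e-07), and the prostaglandin E synthase Ptges2 fell by 0.87 ± 0.07 (adjusted p = 5.1e-07).

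The list of receptors and regulators also held the cholesterol transfer proteins Star, Tspo and Stard3. Of its 20 genes tested 5 rose, Star and Tspo among them, and 7 fell, Stard3 among them (median -0.15). Of all genes tested 21.2% rose and 21.1% fell. The retinoid X receptor Rxrg fell by 2.004 ± 0.09 (edgeR adjusted p = 5.7e-09), to 13.5 ± 1.61 CPM in Mst1-TG, against 54.2 ± 2.73 CPM in WT (SD, n = 4 each). The xenobiotic receptors Nr1i2 and Nr1i3, which drive liver P450 genes, did not pass the filter: Nr1i2 had 0.0102 CPM in Mst1-TG and 0.0849 CPM in WT, and Nr1i3 had 0.227 CPM in Mst1-TG and 0.174 CPM in WT.

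**Figure D5:**
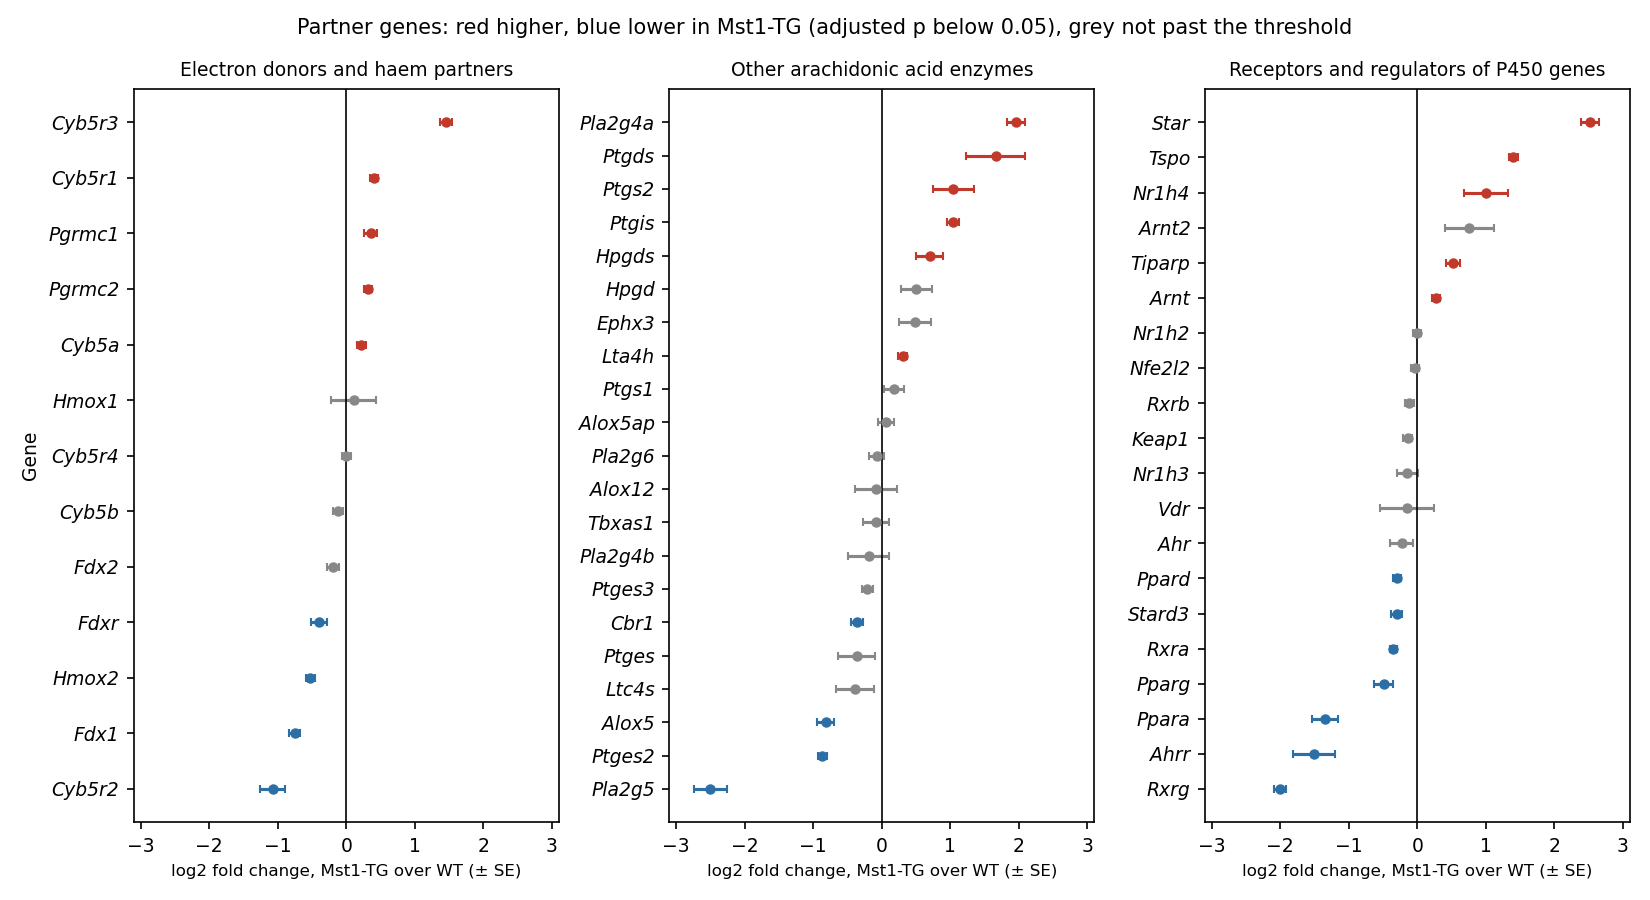
Log2 fold change (Mst1-TG over WT, horizontal axes, ± SE) of the tested genes of 3 partner lists. Red and blue points passed at an adjusted p below 0.05. Star (2.52) and Pla2g4a (1.955) lie at one end, and Pla2g5 (-2.50) and Rxrg (-2.004) at the other.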

How the data were processed

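Left ventricular RNA from 8 samples was depleted of ribosomal RNA and made into directional libraries, per the labels' protocols. The submitters' processing notes name bcl2fastq 2.19.1.403 and kallisto 0.46.0. For the genome build, annotation and strand setting the sources used here give nothing. The authors deposited 1 table of estimated counts per gene, whole numbers not scaled for library size, so rounding them changed none.

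The test was that of edgeR 4.0.16 (in R 4.3.3): filterByExpr (minimum count 10, minimum total 15), TMM factors, and the quasi-likelihood F test (robust) with Benjamini-Hochberg adjustment over 15314 genes and a threshold of 0.05. The SE of a log2 fold change is its size over the root of F. CPM are scaled by TMM. The median SE was 0.111 and the biological coefficient of variation 11.4%. Intervals of count ratios cover counting error only. Counts per kilobase used the longest transcript of GENCODE M21 (GRCm38), in which 55144 of 55385 identifiers were found without their version. Shared 31-base words were counted over all its transcripts, a property of the annotation and not of the reads. Promoters come from RefSeq (GRCm38.p6), which gave a window for 25 of the 31 members. Protein sequences were not used here, although a comparison of them had been planned.

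The labels pair no animals, and same-numbered samples did not deviate together (correlations -0.16, 0.07, 0.02 and -0.02), so the comparison used group alone. Whether each sample is its own animal is not in the labels; p-values then reflect only how far these samples spread, which may be technical. No pair within a group agreed within sampling noise (chi-square over its degrees of freedom 7.92 to 23.4). Alternatives were DESeq2 1.42.0, limma-voom (limma 3.58.1), other scalings, no filter, a replicate block and leaving out each library. The test was tried on simulated data. Members, lists and tests were chosen with earlier results of these data known. Values per library are given for members called with a log2 fold change of at least 0.5 in size, the 3 most abundant members and members below the filter; Partner genes are at most the 4 of smallest p in each list. Cyp27a1's values per library, Fdxr, Fdx2, Pla2g6, Pla2g4b, Stard3, Nr1i2, Nr1i3, Ahr, Arnt, Ahrr and Tiparp fall outside this rule and were chosen after their values were seen.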

Additional observations from a re-analysis of the deposited data

Results flagged for a closer look

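Cyp2t4 was flagged because 1 library lay far from the others of its group. Mst1-TG 1 had 0.608 CPM, against 0.204 to 0.259 CPM in the other Mst1-TG libraries, a gap of 0.863 of the whole range, above Dixon's 95% limit for 4 libraries. Over 52 groups screened this was the 1 flag, and chance flags about 1 group in 20.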

How the results depend on the processing

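Calls and directions of the 11 called members held under DESeq2 size factors, TMM without mitochondrial and the most abundant genes, limma-voom, DESeq2 and each left-out library. With library totals only, 7409 genes were higher and 1592 lower, 82.3% of the calls being higher, and 11 members were higher; Cyp7b1 (0.22) and Cyp2j6 (0.18) changed sign there. Without a filter 8 members were lower, Cyp1a1, Cyp2c29 and Cyp3a11 being added, and Cyp4f16 did not pass (0.36, adjusted p = 0.0576). Without the 3 libraries highest in hepatocyte markers, chosen after seeing the data, 5 members were higher and 5 lower, and Cyp2j9 changed sign (-0.23). Leaving out each library gave 2799 to 3136 genes higher and 2888 to 3208 lower, and 6 to 7 members higher and 5 to 6 lower. Changes of sign among these were in Cyp2j9 (-0.0644 to 0.2143), Cyp7b1 (-0.2534 to 0.093) and Por (-0.0501 to 0.1082), none of them called. With the replicate number as a block 3064 genes were higher and 3123 lower, with 6 members higher and 5 lower, and no call on a member changed; the samples share only a number. With median transcript lengths the WT levels of Ephx2, Ephx1 and Por were 117, 34.0 and 60.7 TPM, so that Por passed Ephx1, and in Mst1-TG Por passed Ephx2 too. Depth limits Cyp1a1, Cyp1a2, Cyp2c29, Cyp3a11 and Cyp11a1, at 0 to 53 counts a library.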
